A study of Mus musculus with 9 samples.

Results

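The 27 genes described here make, move and sense cholesterol. They were chosen by gene symbol, with earlier results of these data known. The list held 18 enzymes of sterol synthesis, 5 genes of the SREBP control circuit and 4 genes of sterol traffic. All 27 were found among the 17132 genes of the table, and all 27 passed the filter on low counts, which left 12828 genes for testing.

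Pancreas mRNA of wild-type C57BL/6 mice weighing 22 to 25 g was sequenced in 3 groups of 3 libraries, named here by the numbers in their titles. Control libraries (43, 44 and 45) came from mice given 7 hourly intraperitoneal injections of saline, with saline again in place of the medication. Model libraries (56, 57 and 59) came from mice given 7 hourly injections of caerulein, stated in the series text as 50 mg/kg, with lipopolysaccharide (LPS) added to the last injection, and saline in place of the medication. Caerulein is a peptide that overstimulates the enzyme-secreting acinar cells and causes acute pancreatitis, and LPS is a bacterial endotoxin. QYD libraries (65, 66 and 68) came from mice given the same caerulein and LPS and then Qingyi Decoction, a Chinese herbal prescription, at 0 and 8 h after modelling. All tissue was taken 24 h after the start. Sex, age, the dose of LPS and the dose of the decoction were found in none of the labels, and the treatment label of the QYD group spells the name QTD. No source states that each library is 1 animal, so p-values measure the spread between these samples, which may be technical.

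Cells build cholesterol from acetyl-CoA through mevalonate, isoprenoid diphosphates, squalene and lanosterol. The transcription factor SREBP-2, the product of Srebf2, drives most genes of this route. SREBP-2 and its relative SREBP-1 are held in the endoplasmic reticulum by SCAP and the INSIG proteins while sterols are plentiful, and are released for cleavage in the Golgi when sterols run low. NPC1 and NPC2 carry cholesterol out of lysosomes, STARD4 carries it between membranes, and ABCA1 exports it from the cell under control of the oxysterol receptor LXR. The acinar cell turns over large amounts of secretory membrane, and its sterol supply depends on both synthesis and uptake.

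Because several members moved together, the promoter letters of 4 of them are shown. RefSeq promoter windows on mouse build GRCm38.p6, reaching from 250 bases before to 50 bases after the annotated start, were found for 22 of the 27 genes. Fdps, Fdft1, Sqle, Stard4 and Npc1 had no entry. Each window was searched on both strands for SRE-1, the classical sterol regulatory element, and for the looser TCACNCCAC, which lies inside SRE-1, for CCAAT, the box bound by NF-Y, and for GGGCGG, the box bound by Sp1. SREBP is known to act with NF-Y and Sp1. Matches are in capitals, and a match on the opposite strand appears as its reverse complement. Hmgcs1 is shown as the 1 member with a TCACNCCAC match, and Srebf2, Acat2 and Msmo1 as those with the next smallest p for Model versus Control among members with an entry. The Hmgcs1 window is chr13:119690101-119690400 on the plus strand, the Srebf2 window chr15:82147019-82147318 on the plus strand, the Acat2 window chr17:12960676-12960975 on the minus strand and the Msmo1 window chr8:64733529-64733828 on the minus strand. Each is written 5′ to 3′ along its gene.
Hmgcs1: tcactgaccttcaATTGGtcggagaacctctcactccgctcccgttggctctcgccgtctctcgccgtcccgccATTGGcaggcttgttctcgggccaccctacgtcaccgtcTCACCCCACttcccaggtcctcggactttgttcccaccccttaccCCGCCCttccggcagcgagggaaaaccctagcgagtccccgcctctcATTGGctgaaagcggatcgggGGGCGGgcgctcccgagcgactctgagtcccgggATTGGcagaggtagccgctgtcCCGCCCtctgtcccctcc
Srebf2: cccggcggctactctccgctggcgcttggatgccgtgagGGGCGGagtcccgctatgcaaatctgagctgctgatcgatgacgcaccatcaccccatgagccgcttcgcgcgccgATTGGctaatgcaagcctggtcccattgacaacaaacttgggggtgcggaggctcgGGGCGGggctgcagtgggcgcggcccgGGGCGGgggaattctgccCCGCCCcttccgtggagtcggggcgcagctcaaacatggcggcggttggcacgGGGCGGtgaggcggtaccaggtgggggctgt
Acat2: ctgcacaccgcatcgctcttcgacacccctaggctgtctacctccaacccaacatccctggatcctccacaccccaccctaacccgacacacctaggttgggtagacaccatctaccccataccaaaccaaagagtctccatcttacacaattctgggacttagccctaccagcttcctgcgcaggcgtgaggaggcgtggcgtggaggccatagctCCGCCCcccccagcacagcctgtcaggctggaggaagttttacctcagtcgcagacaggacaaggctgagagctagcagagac
Msmo1: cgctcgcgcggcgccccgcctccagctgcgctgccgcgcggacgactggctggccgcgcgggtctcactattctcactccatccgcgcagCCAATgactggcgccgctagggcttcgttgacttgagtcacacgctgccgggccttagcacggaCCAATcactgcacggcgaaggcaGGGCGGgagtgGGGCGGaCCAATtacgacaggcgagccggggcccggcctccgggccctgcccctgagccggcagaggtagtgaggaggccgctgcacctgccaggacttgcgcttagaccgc

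SRE-1 was in none of the members' windows and in 0.0913% of all 32851 windows. TCACNCCAC was in the Hmgcs1 window alone among members, where the letters TCACCCCAC begin at position -137 from the start, and in 1.24% of all windows. CCAAT was in 20 of the members' 30 windows, which belong to 19 of the 22 genes, and in 37.4% of all windows. Srebf2 holds 1 such box in the printed stretch, Msmo1 holds 3, Hmgcs1 holds 4 and Acat2 holds 0. GGGCGG was in 25 of the members' 30 windows, from 21 of the 22 genes, in 35.7% of all windows and in 60.9% of the windows of tested genes. The 9 matched members that passed as higher in Model and the 13 other matched members did not separate by these boxes: CCAAT was found in 8 and 11 of them and GGGCGG in 9 and 12. With the boxes in 19 and 21 of the 22 genes, there was little room for a difference. Entries were missing only among the 14 members that passed as higher. These matches describe letters in a window of 300 bases and say nothing of binding.

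Libraries held 19112923 to 20212744 estimated counts, so depth was similar, but composition was not. The 50 most abundant genes took 90.8 to 91.4% of counts in Control libraries and 64.8 to 72.0% in Model and QYD libraries. The 27 members together took 0.00913 to 0.0127% of counts in Control libraries and 0.0569 to 0.0799% in Model and QYD libraries. Levels are therefore given as CPM, the count scaled to a common library size, on the TMM scale, which sets the bulk of genes equal between libraries, and every fold change is relative to that bulk unless it is said to be on library totals. On library totals the median gene was higher by 2.19 (log2) in Model than in Control. All 12 acinar markers were detected in every library. Their summed level on the TMM scale was 722680 to 885920 CPM in Control, 117610 to 155350 in Model and 107380 to 144190 in QYD. Values on this scale are not shares of a library's counts. On library totals the sum was 286550 to 344210 CPM in Control, 210290 to 235640 in Model and 191970 to 199820 in QYD. The acinar sum was thus lower in Model and QYD on both scales, but by much less on library totals. In such bulk tissue, fewer cells of a type and less RNA per cell cannot be told apart. Whether the change in cell makeup has a part in the results for sterol genes was not tested.

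Caerulein with LPS was followed by higher levels of most of the 18 listed synthesis enzymes on the TMM scale. Of the 27 members, 14 rose in Model against Control, 2 fell and 11 did not pass (edgeR's quasi-likelihood test, Benjamini-Hochberg adjusted p under 0.05 over all 12828 genes). The background was 21.3% of all tested genes called higher and 21.3% called lower, against 51.9% and 7.41% of members. The members were chosen with earlier results of these data known, so this excess is a description and not a test. The median log2 fold change of the members was 0.80, that of the 18 enzymes 0.94 and that of all genes 0.04. The 3 libraries of Model lay entirely above the 3 of Control for 14 members and entirely below for 2, with 27.4% and 24.9% of all tested genes doing so. At an unadjusted p under 0.05 there were 19 members, beside 50.5% of all genes. On library totals all 27 members were called higher (median 2.96 on the log2 scale), where 94% of all genes were called higher.

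**Figure D1:**
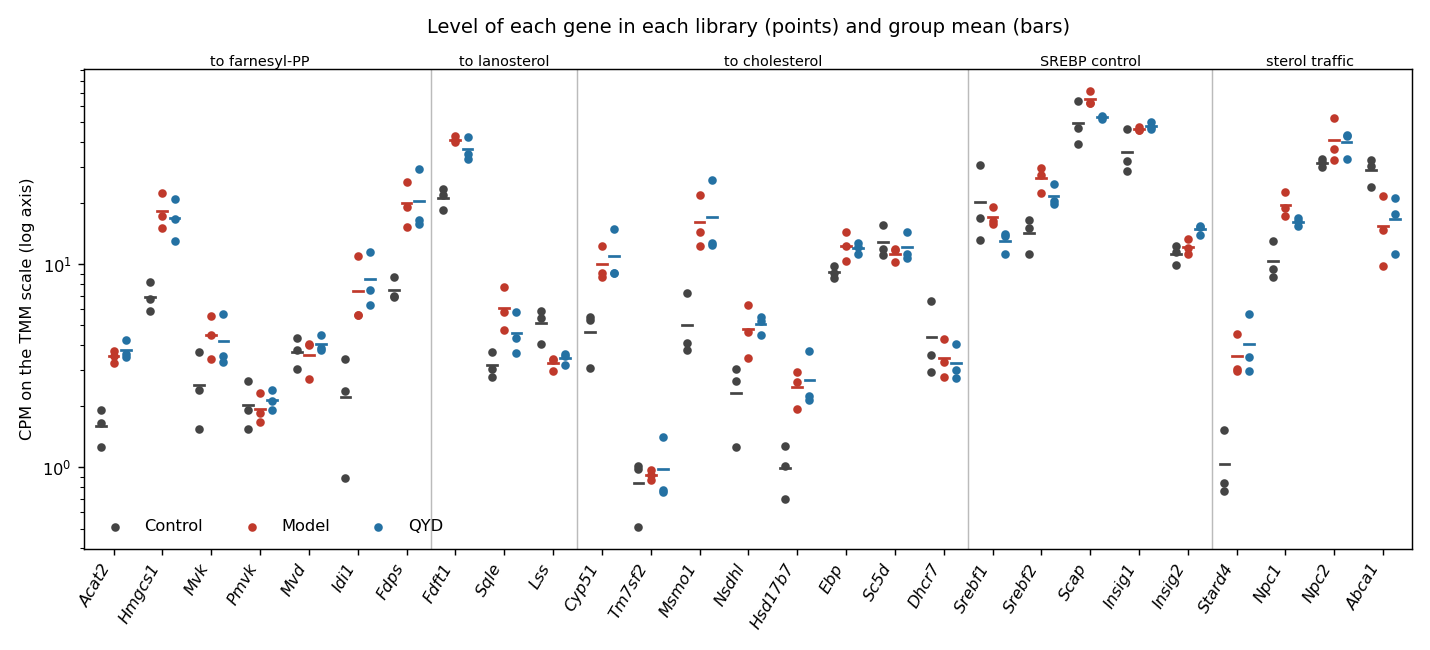
CPM on the TMM scale (log axis) of each of the 27 genes in each of the 9 libraries (points), with group means (bars), ordered by role. Hmgcs1, Fdps, Fdft1, Msmo1, Srebf2, Stard4 and Npc1 lie higher in every Model and QYD library than in any Control library, and Lss and Abca1 lie lower on this scale, though not on library totals.

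The first stretch of the route, from acetyl-CoA to farnesyl diphosphate, had 4 of 7 genes higher in Model and none lower. Values below are CPM on the TMM scale in the order Control 43, 44 and 45, then Model 56, 57 and 59, then QYD 65, 66 and 68. Acat2, the cytosolic thiolase that joins a pair of acetyl-CoA units, measured 1.26, 1.66 and 1.91 in Control, 3.55, 3.27 and 3.73 in Model and 3.48, 3.62 and 4.25 in QYD. Every Model and QYD library was above every Control library, and the change in Model was 1.12 ± 0.22 on the log2 scale (SE, n = 3 per group; edgeR adjusted p = 0.00184). Hmgcs1, which makes HMG-CoA, measured 5.87, 6.75 and 8.14 in Control, 22.5, 15.1 and 17.3 in Model and 16.6, 13.0 and 20.9 in QYD. Its groups did not overlap either, and it rose 2.64-fold in Model (log2 1.40 ± 0.22, edgeR adjusted p = 0.000607). Idi1, the isomerase that readies isopentenyl diphosphate for chain building, measured 2.38, 0.891 and 3.43 in Control, 11, 5.66 and 5.66 in Model and 6.31, 7.5 and 11.5 in QYD. Control 44 was low within its group and Model 56 high, and the change in Model was 1.74 ± 0.44 (edgeR adjusted p = 0.00843). Fdps, which makes farnesyl diphosphate, the last intermediate shared with protein prenylation, measured 6.99, 6.88 and 8.64 in Control, 25.5, 15.2 and 19.2 in Model and 15.7, 16.4 and 29.4 in QYD. It rose 2.66-fold in Model (log2 1.41 ± 0.28, edgeR adjusted p = 0.00237), again with no overlap.

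The mevalonate kinases and decarboxylase between Hmgcs1 and Idi1 did not pass. Mvk, mevalonate kinase, measured 1.54, 3.69 and 2.42 in Control and 5.55, 4.47 and 3.41 in Model, so that Control 44 lay above Model 59. Its difference was 0.80 ± 0.33 (log2, edgeR adjusted p = 0.0743). It passed when Control 44 was left out (1.17, adjusted p = 0.0359) or Model 59 was left out (0.96, adjusted p = 0.0488). Without Control 43 it was lower, at 0.56, and did not pass. Pmvk and Mvd, the next enzymes in line, differed by -0.07 ± 0.26 and -0.05 ± 0.22 on the log2 scale, with overlapping groups.

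At the branch to sterols, the genes on both sides of squalene rose and the cyclase after them fell on the TMM scale. Fdft1, squalene synthase and the first enzyme given over to sterols, measured 18.6, 23.4 and 21.9 in Control, 40.7, 40.0 and 42.6 in Model and 34.9, 33.1 and 42.5 in QYD. The Model libraries were tightly grouped at nearly the same level, and the rise was 0.95 ± 0.13 (edgeR adjusted p = 0.000312), the smallest adjusted p of any member in this comparison. Sqle, squalene epoxidase, measured 2.80, 3.06 and 3.69 in Control, 7.76, 4.76 and 5.83 in Model and 4.36, 3.65 and 5.81 in QYD. It rose by 0.94 ± 0.26 in Model (edgeR adjusted p = 0.0130), and QYD 66 lay within the range of Control. Lss, lanosterol synthase, which closes the sterol rings, measured 5.45, 5.86 and 4.07 in Control, 2.98, 3.36 and 3.41 in Model and 3.60, 3.18 and 3.54 in QYD. Every Model and QYD library was below every Control library, and Lss fell by 0.66 on the log2 scale with an SE of 0.18 (edgeR adjusted p = 0.0136), but it was higher by 1.49 on library totals. Without Control 44 its value was -0.54 (adjusted p = 0.0525).

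Some of these counts may include reads of neighbours, since no label states whether the counting used strand. Of the exon bases of Fdft1, 18.3% overlap Ctsb on the opposite strand in the GENCODE annotation, and Ctsb, which encodes cathepsin B, was higher by 0.85 in Model (edgeR adjusted p = 0.000458). For Fdps, 26.7% of exon bases lie in the same-strand gene model Gm43738, and for Tm7sf2, 12.1% lie in Vps51. Opposite-strand gene models overlap 13.2% of the exon bases of Scap, 12.1% of those of Hmgcs1 and 9.22% of those of Idi1. Overlaps of Cyp51, Lss, Npc1 and Srebf1 were smaller. Acat2, Idi1 and Fdft1 had estimated counts that were not whole, as happens when reads are split between similar sequences, and their values are uncertain to that extent.

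From lanosterol to cholesterol, 5 of 8 genes rose in Model and none fell. Cyp51, the lanosterol demethylase, measured 3.08, 5.48 and 5.34 in Control, 12.3, 8.63 and 9.07 in Model and 9.06, 9.01 and 14.8 in QYD, a rise of 1.10 ± 0.28 in Model (edgeR adjusted p = 0.00808). Msmo1, which oxidises the methyl groups on the sterol ring, measured 3.77, 4.07 and 7.25 in Control, 21.9, 12.2 and 14.5 in Model and 12.7, 12.5 and 25.9 in QYD. It rose 3.20-fold in Model (log2 1.68 ± 0.37, edgeR adjusted p = 0.00422). Nsdhl, the dehydrogenase of the same demethylation complex, measured 1.26, 3.06 and 2.67 in Control, 6.32, 4.64 and 3.45 in Model and 5.23, 4.49 and 5.51 in QYD. The groups did not overlap and the rise was 1.04 ± 0.31 (edgeR adjusted p = 0.0201), but it did not pass without Control 43 (0.75, adjusted p = 0.0727) or without Model 56 (0.79, adjusted p = 0.0651). Hsd17b7, the ketoreductase of that complex, measured 0.699, 1.27 and 1.02 in Control, 2.95, 2.62 and 1.93 in Model and 2.25, 2.14 and 3.72 in QYD. It rose by 1.32 ± 0.36 (edgeR adjusted p = 0.0120), with an adjusted p of 0.0503 without Control 43.

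Of the other genes of this stretch, Ebp passed and Sc5d, Dhcr7 and Tm7sf2 did not. Ebp, the sterol isomerase, measured 9.09, 8.53 and 9.79 in Control, 10.3, 12.2 and 14.4 in Model and 12.7, 11.2 and 12.2 in QYD. Its rise was 0.43 ± 0.15 (edgeR adjusted p = 0.0381). This call did not hold without Control 43, 44 or 45, without Model 57 or 59 or without QYD 65 or 66, where adjusted p lay between 0.0508 and 0.133 and the log2 fold change between 0.31 and 0.49. Sc5d, the sterol desaturase, measured 11, 11.8 and 15.6 in Control and 11.7, 10.3 and 11.9 in Model, a difference of -0.19 ± 0.17 with overlapping groups. Dhcr7, the reductase that completes cholesterol, measured 2.94, 6.62 and 3.56 in Control and 4.29, 2.80 and 3.31 in Model. Its difference of -0.34 ± 0.30 turned to 0.10 without Control 44, the highest library. Tm7sf2, a sterol reductase and among the least abundant members at 4 to 8 counts in Control libraries, differed by 0.14 ± 0.40.

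**Figure D2:**
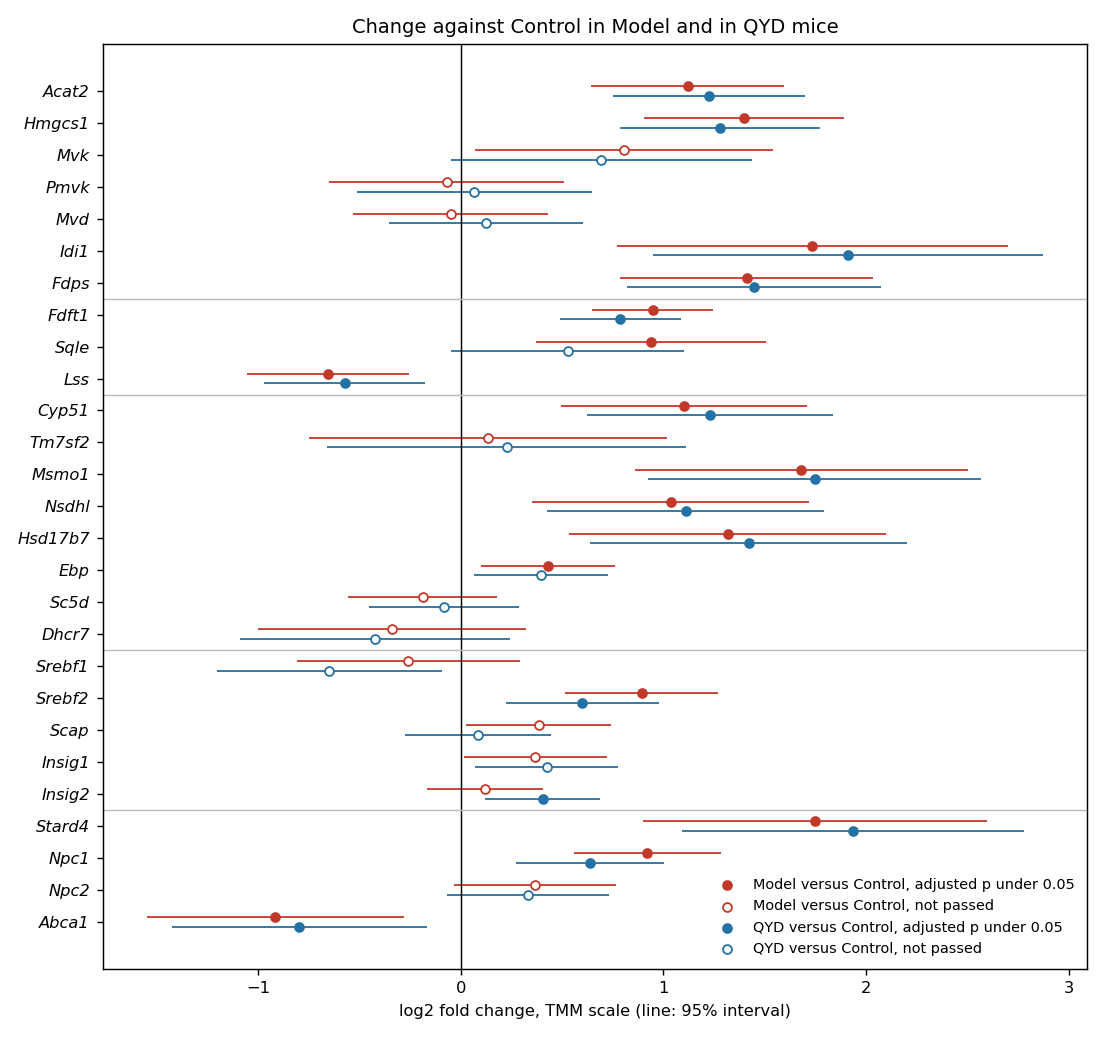
Log2 fold change on the TMM scale (points, with 95% intervals) of each gene in Model against Control (red) and QYD against Control (blue), which share the Control libraries; filled points passed at adjusted p under 0.05. The largest values are those of Stard4 at 1.75 and 1.94 and Idi1 at 1.74 and 1.91, and Lss and Abca1 lie left of 0 in both comparisons on this scale, but not on library totals.

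In the SREBP circuit, the gene for SREBP-2 rose and the others did not pass. Srebf2 measured 11.2, 16.6 and 15.1 in Control, 29.9, 22.4 and 27.5 in Model and 20.5, 19.8 and 24.9 in QYD. Every Model and QYD library lay above Control, and the rise in Model was 1.86-fold (log2 0.89 ± 0.17, edgeR adjusted p = 0.00182). Srebf1, which encodes SREBP-1 and is best known for fatty acid synthesis, measured 13.1, 30.9 and 16.9 in Control, 19.1, 15.7 and 16.3 in Model and 14, 11.2 and 13.8 in QYD. Control 44 stood high, and the Model difference of -0.26 ± 0.25 turned to 0.18 without it. Scap, the escort of both factors, measured 38.9, 63.5 and 47.0 in Control and 71.2, 62.0 and 61.9 in Model (difference 0.38 ± 0.16, edgeR adjusted p = 0.0796), and passed without Control 44 (0.60, adjusted p = 0.00615). Without Control 43 the Scap difference was 0.24 and did not pass. Insig1, the retention protein that SREBP-2 itself induces, measured 28.7, 32.2 and 46.4 in Control and 45.7, 45.7 and 47.1 in Model. Control 45 lay within the range of Model, the difference was 0.37 ± 0.16 (edgeR adjusted p = 0.0872), and without Control 45 it passed at 0.60 (adjusted p = 0.00378). The Insig1 difference was 0.23 without Control 43 and did not pass. Insig2, the other retention protein, differed by 0.12 ± 0.13 with overlapping groups.

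The balance of the 2 SREBP genes was also taken within each library, where scaling between libraries has no bearing. The ratio of Srebf2 to Srebf1 in FPKM (counts per gene length and library total) was 0.779, 0.481 and 0.798 in Control, 1.43, 1.30 and 1.54 in Model and 1.33, 1.60 and 1.65 in QYD. Srebf1 was thus the higher of the pair in every Control library and Srebf2 in every other library. The mean log2 ratio was higher by 1.09 in Model than in Control and by 1.19 in QYD than in Control. Both had an exact two-sided permutation p of 0.1, the smallest that 3 against 3 allows, and 0.225 after adjustment over the 9 ratio tests. The ratio of Insig2 to Insig1 was 0.456, 0.340 and 0.258 in Control, 0.310, 0.260 and 0.270 in Model and 0.318, 0.341 and 0.326 in QYD. The QYD libraries lay just above the Model libraries, by 0.23 on the log2 scale (exact permutation p = 0.1, adjusted 0.225), and both fell inside the wide range of Control.

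**Figure D3:**
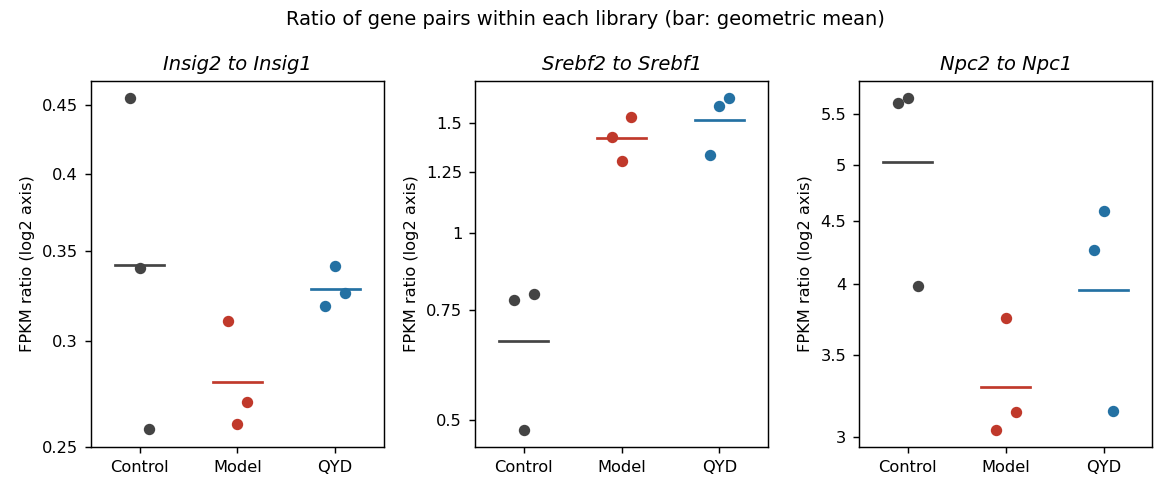
FPKM ratio (log2 axis) of Insig2 to Insig1, Srebf2 to Srebf1 and Npc2 to Npc1 in each library (points) with the geometric mean of each group (bars). The Srebf2 to Srebf1 ratio is at most 0.798 in Control and at least 1.30 in Model and QYD.

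Among the genes of sterol traffic, Stard4 and Npc1 rose, Abca1 fell on the TMM scale and Npc2 did not pass. Stard4, a carrier of free cholesterol between membranes, measured 0.839, 0.764 and 1.53 in Control, 4.55, 3.07 and 2.97 in Model and 3.48, 2.98 and 5.66 in QYD. Its rise of 3.36-fold (log2 1.75 ± 0.39, edgeR adjusted p = 0.00407) lay within the error of that of Idi1 (log2 1.74 ± 0.44), and these were the highest values of the 27 members on the TMM scale. In Control, Stard4 rested on 6, 6 and 12 estimated counts and Idi1 on 17, 7.19 and 27, which limits the precision of both. Npc1, the lysosomal membrane transporter, measured 9.50, 8.66 and 13.0 in Control, 17.3, 22.7 and 19 in Model and 16.3, 15.3 and 16.9 in QYD, a rise of 0.92 ± 0.16 in Model (edgeR adjusted p = 0.00117). Npc2, the soluble lysosomal protein that hands cholesterol to NPC1, measured 32.8, 30.2 and 31.8 in Control and 32.7, 52.5 and 37.1 in Model. Its difference was 0.37 ± 0.18 (edgeR adjusted p = 0.126). It reached an adjusted p of 0.0499, at 0.51, without Model 56, and was down to 0.145 without Model 57. The ratio of Npc2 to Npc1 in FPKM was 3.98 to 5.67 in Control, 3.04 to 3.75 in Model and 3.15 to 4.59 in QYD. It was lower by 0.61 (log2) in Model than in Control with no overlap, at an exact permutation p of 0.1 (adjusted 0.225).

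Abca1, the cholesterol exporter, measured 24.0, 32.7 and 30.4 in Control, 9.84, 21.6 and 14.8 in Model and 21.2, 17.7 and 11.3 in QYD. Every Model and QYD library was below every Control library on the TMM scale. It fell by 0.91 in Model with an SE of 0.29 (edgeR adjusted p = 0.0247), but on library totals it was higher by 1.23, less than the median gene. The call was lost without Control 44, Control 45, Model 56 or Model 59, where adjusted p was 0.0617 to 0.0839 and the log2 fold change -0.88 to -0.67. The summed level of 9 macrophage markers, cells known for high ABCA1, was 79.3 to 114 CPM in Control, 72.3 to 153 in Model and 93.4 to 124 in QYD, and its part in the result for Abca1 was not tested.

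Levels per gene length showed which members carried the most mRNA. In Control the highest were Insig1 at 5.45 ± 1.66 FPKM (SD, n = 3), Scap at 4.66 ± 1.32 and Npc2 at 3.84 ± 0.16, and the lowest were Hsd17b7 at 0.087 ± 0.025 and Stard4 at 0.093 ± 0.023. In Model, Insig1 was again highest at 31.0 ± 2.4 FPKM, followed by Fdps at 29.9 ± 9.6, which stood below Insig1, Scap and Npc2 in Control. Neighbours such as Insig1, Fdps and Scap (26.95 ± 4.36) did not differ beyond their spread in Model. Lss and Hsd17b7 were lowest and did not differ beyond their spread, at 0.94 ± 0.11 and 0.96 ± 0.28 FPKM in Model and 0.89 ± 0.19 and 0.93 ± 0.20 in QYD. FPKM is scaled to library totals, so its rise from Control to Model holds the shift in composition given above.

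The decoction was not followed by a detectable change of any member. In QYD against Model, 0 of 27 members passed, as did 0 of all 12828 genes (edgeR, background 0% higher and 0% lower). At an unadjusted p under 0.05 there were 750 genes (5.85%) and 1 member, and DESeq2 also called 0 genes. The 95% intervals of 26 of the 27 members included 0, and the bounds over all members ran from -0.92 to 0.90 on the log2 scale. The 5 members with the smallest p were Insig2, Sqle, Npc1, Scap and Srebf2. Insig2 was the member at an unadjusted p under 0.05, with 13.4, 11.2 and 12 CPM in Model and 13.9, 15.3 and 15.3 in QYD, a difference of 0.28 ± 0.12 (edgeR adjusted p = 0.826). Every QYD library was above every Model library.

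The other 4 were lower in QYD by their means, and none passed. Sqle differed by -0.41 ± 0.22, with overlapping groups. Npc1 differed by -0.28 ± 0.15 and Scap by -0.30 ± 0.16, each with all QYD libraries below all Model libraries. Srebf2 differed by -0.29 ± 0.16, with QYD 68 above Model 57. All 4 had an edgeR adjusted p of 0.826. Srebf1, named because its groups also did not overlap, differed by -0.39 ± 0.24 (adjusted p = 0.826). In all, 1 member lay entirely higher and 3 entirely lower in QYD than in Model, against 8.56% and 8.18% of all tested genes. The 18 enzymes all overlapped between the groups.

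**Figure D4:**
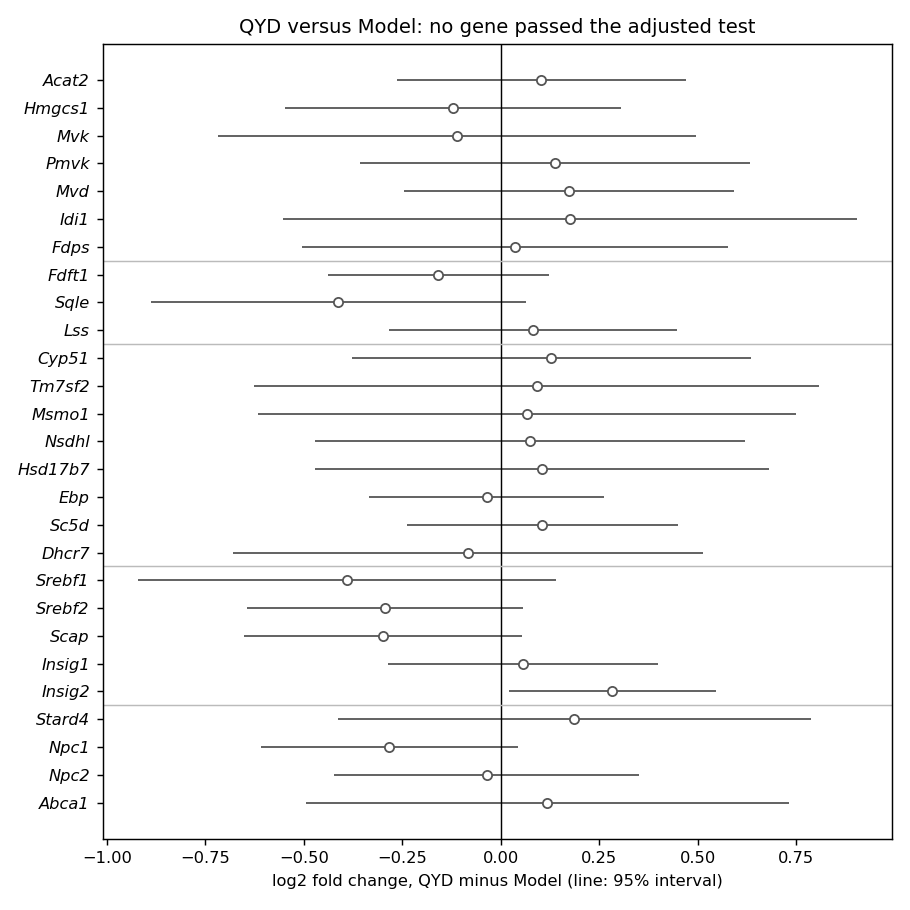
Log2 fold change of each gene in QYD against Model (points) with 95% intervals (lines), on the TMM scale. Insig2 at 0.28 is the only gene whose interval leaves out 0, and Sqle at -0.41 has the lowest value; none passed after adjustment.

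Against Control, which serves both comparisons, the QYD libraries were again higher for most enzymes that had risen in Model. In QYD 13 members were higher, 2 lower and 12 did not pass, with backgrounds of 20.5% higher and 20.3% lower. At an unadjusted p under 0.05 there were 18 members and 49.7% of all genes. The median log2 fold change was 0.53 for the members and 0.06 for all genes. The QYD libraries lay entirely above Control for 16 members and entirely below for 2, as did 27.8% and 24.7% of all genes. The 2 lower members were again Lss (-0.57 ± 0.18, edgeR adjusted p = 0.0262) and Abca1 (-0.80 ± 0.29, adjusted p = 0.0456) on the TMM scale, both higher on library totals by 1.46 and 1.27. The largest values, picked out after they were seen, were those of Stard4 at 1.94 ± 0.38 and Idi1 at 1.91 ± 0.44. On library totals all 27 members were called higher, as were 93.8% of all genes.

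The calls of 3 members differed from those in Model. Sqle did not pass in QYD (0.53 ± 0.26, edgeR adjusted p = 0.130), nor did Ebp (0.39 ± 0.15, adjusted p = 0.0560). Insig2 passed in QYD (0.40 ± 0.13, adjusted p = 0.0282) and not in Model. The test of the difference itself is the comparison of QYD with Model, in which Sqle, Ebp and Insig2 had adjusted p of 0.826, 0.971 and 0.826. Several QYD calls lay near the threshold. Lss did not pass without Control 43 or 44 or any 1 of the QYD libraries (-0.61 to -0.46, adjusted p 0.0518 to 0.0959), nor did Insig2 without Control 44, Control 45, QYD 66 or QYD 68 (0.33 to 0.42, adjusted p 0.0522 to 0.0824). Abca1 did not pass without Control 44, Control 45, Model 59, QYD 66 or QYD 68 (-0.83 to -0.58, adjusted p 0.0582 to 0.139). Ebp passed without Model 56 or Model 59 (adjusted p 0.0391 and 0.0421). Srebf1, at -0.65 ± 0.25 (adjusted p = 0.0615), passed without Control 43 (-0.88, adjusted p = 0.0141). Without Control 44, the Control library with the highest Srebf1, the value was -0.21 and did not pass.

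Within each group the enzymes tended to sit high or low in the same library. Model 56 had the highest value of its group for 11 of the 18 enzymes, and Model 57 the lowest for 13. QYD 68 was highest for 13 of 18 and QYD 66 lowest for 12. In Control, library 45 was highest for 11 and library 43 lowest for 12. Among all tested genes, 33.4% were highest in Model 56, 37% in QYD 68 and 30.4% in Control 45. The median enzyme of QYD 68 stood 0.30 above its group mean on the log2 scale and that of Model 56 stood 0.29 above, while the median of all genes stood at -0.00029 and -0.00773. Abca1 was lowest of its group in Model 56, at 9.84 CPM, and in QYD 68, at 11.3. Control went the other way: Abca1 was lowest in Control 43, at 24.0 CPM, where most enzymes were also lowest, and was 30.4 in Control 45. The enzymes share each library's scaling and depth, so this is a description of 9 libraries and not a test.

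**Figure D5:**
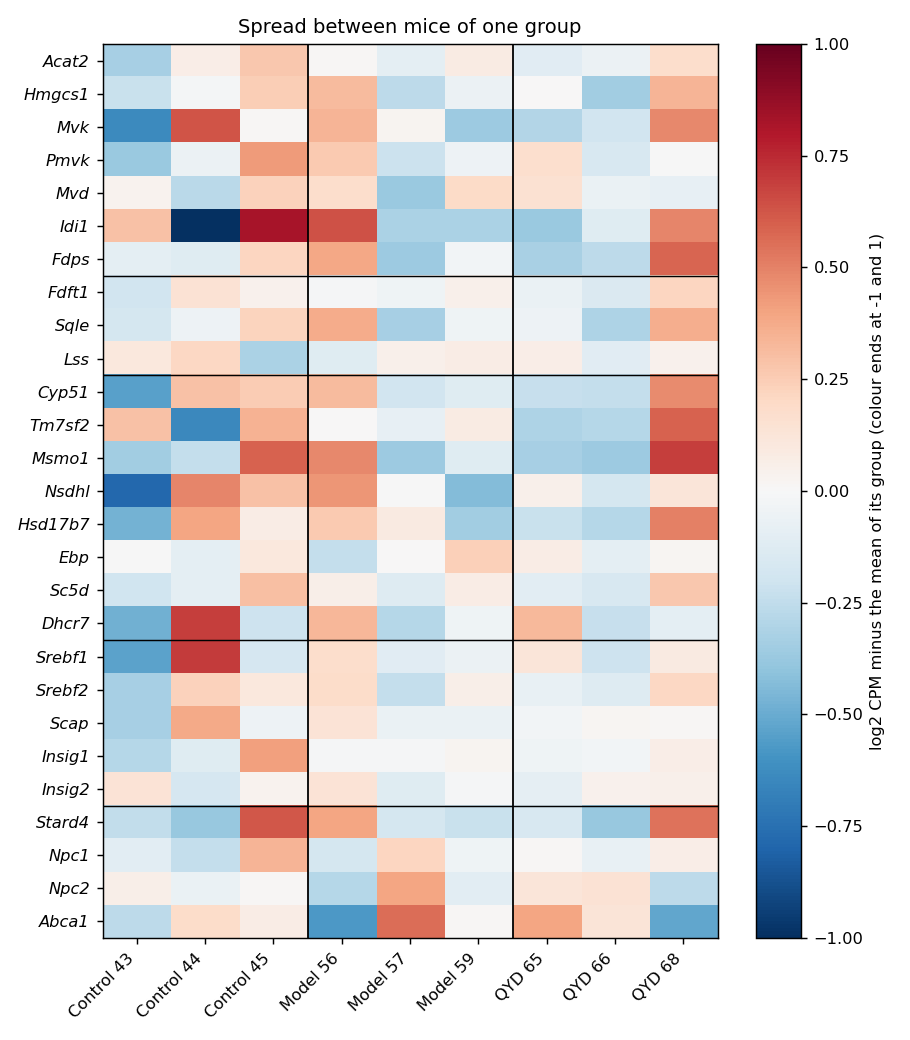
Log2 CPM of each gene in each library minus the mean of its group, on the TMM scale, with red above and blue below (the colours end at -1 and 1). Most enzymes are red in Model 56 and QYD 68, where Abca1 is blue, whereas in Control 43 most enzymes and Abca1 are blue.

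Markers of other cells also differed between libraries of a group. The sum of 6 B-cell markers was 0.544, 11 and 0.414 CPM in Model 56, 57 and 59 and 11.4, 18.9 and 0.857 in QYD 65, 66 and 68, so that it was low in both libraries with high enzyme levels, and also in Model 59. The macrophage sum was 83.5, 153 and 72.3 in Model and 123, 124 and 93.4 in QYD. The sum of 8 neutrophil markers was 175, 132 and 107 in Model and 173, 141 and 262 in QYD. The sum of 7 duct markers was 465, 362 and 386 in Model and 349, 329 and 427 in QYD, beside 212 to 278 in Control. The summed level of the 18 enzymes was 197, 150 and 167 CPM in Model and 153, 143 and 211 in QYD, so on the TMM scale the libraries of each of these groups fell in the same order by duct markers and by enzymes. In Control the orders differed, and on library totals they differed in QYD. The match with duct markers was picked out of the 12 cell type lists after the values were seen. The neutrophil order differed from that of the enzymes in Model, and the macrophage order in both Model and QYD. In Model against Control, 12 of 12 acinar and 7 of 8 islet markers were lower and none higher on the TMM scale. Of the neutrophil and macrophage markers, 7 of 8 and 4 of 9 passed as higher and none passed as lower. Only those 4 of the 9 macrophage values were above 0, and the macrophage median was -0.13 (log2). The duct list likewise had 3 of 7 values above 0 and a median of -0.008. Among all tested genes, 21.3% were higher and 21.3% lower, and the small counts that follow are to be read beside that share. Of the other lists, 3 of 7 duct, 3 of 7 fibroblast and stellate, 2 of 6 endothelial and 1 of 2 hepatocyte markers were higher and 1 of each was lower. Adipocyte markers were lower for 2 of 7, and 0 of 5 B-cell, 0 of 2 T-cell and 0 of 1 intestinal markers passed. On library totals, where 94% of all tested genes were called higher, 2 acinar markers were higher and 10 lower. Islet markers turned there, with 3 higher, 0 lower and a median of 0.56 (log2). The part of any of these cells in the levels of sterol genes was not tested.

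Neighbouring pathways were compared in Model against Control, and the counts given here are on the TMM scale, where 21.3% of all tested genes were higher and 21.3% lower. On library totals the median of each of these lists was higher in Model, by 1.32 to 2.89, beside 2.19 for all genes. Of 14 tested genes of fatty acid synthesis, the SREBP-1 branch, 4 rose and 4 fell (28.6% each, near the share of all genes), with a median log2 fold change of -0.04. Me1, the malic enzyme that supplies NADPH, rose by 1.52 ± 0.21 (edgeR adjusted p = 0.00026) and Gpam, which starts glycerolipid synthesis, fell by 1.55 with an SE of 0.29 (adjusted p = 0.0014). The other members of that list that rose were Elovl6, Lpin1 and Fads1, and the others that fell were Scd1, Fads2 and Fasn. Of 17 tested partners of SREBP processing and INSIG or sterol-enzyme degradation, 1 rose (Erlin2, 0.44) and 6 fell (5.88% and 35.3%). The lowest p was that of Syvn1, an ER ubiquitin ligase, which fell by 1.5 (SE 0.13, adjusted p = 1.67e-05), followed by the ubiquitin-conjugating enzyme Ube2g2, which fell by 0.99 (SE 0.15, adjusted p = 0.000384).

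The LXR and efflux list, to which Abca1 is related, had 6 of 11 tested genes lower (54.5%) and 0 higher, and a median of -0.84. Apoe, the lipid carrier, fell by 1.85 (SE 0.34, edgeR adjusted p = 0.00147), from 108 ± 29 CPM in Control to 30.0 ± 12.7 in Model. Rxrb, a partner receptor of LXR, fell by 0.91 (SE 0.16, adjusted p = 0.00114), and Abcg1, Mylip, Pltp and Arl4c were the others that fell. On library totals Apoe was higher by 0.32 and Rxrb by 1.23, below the shift of the median gene. Of 21 genes of sterol uptake, storage and lysosomal traffic, 4 rose and 6 fell (19% and 28.6%, near the share of all genes). Soat1, which esterifies cholesterol for storage, rose by 1.2 ± 0.2 (adjusted p = 0.000706), as did Lrp1, Lipa and Scarb2, and Gramd1b, a carrier of plasma membrane cholesterol, fell by 1.73 (SE 0.25, adjusted p = 0.000334). Of 7 genes of oxysterol and sterol modification, not all of them oxidases, 3 rose and 1 fell (42.9% and 14.3%). Ephx1 rose by 1.18 ± 0.17 (adjusted p = 0.000333), Ch25h and Sult2b1 were the others that rose, and Cyp39a1, an oxysterol hydroxylase, fell by 1.54 (SE 0.21, adjusted p = 0.000259).

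The isoprenoid branches that leave the route at farnesyl diphosphate had 1 of 14 genes higher (Rce1, 0.46 ± 0.17) and 1 lower (Rabggtb, -0.58 ± 0.14). Each count is 7.14% of the list, against 21.3% of all tested genes called in each direction. Of 10 other sterol synthesis or SREBP-2 responsive genes, 1 rose and 2 fell (10% and 20%), with a median log2 fold change of -0.08. These genes outside the 27 members thus showed no excess of higher calls over the 21.3% of all tested genes. Por, the electron donor of CYP51 and squalene epoxidase, rose by 0.84 ± 0.21 (edgeR adjusted p = 0.00828). Acat1, the mitochondrial thiolase, fell by 1.47 (SE 0.14, adjusted p = 2.48e-05) and Tmem97 fell by 0.78. Acat2 and Acat1, the cytosolic and mitochondrial thiolases, thus moved in opposite directions on this scale. Of 12 cell cycle genes, Mcm6 (1.73 ± 0.18) and Mcm4 (1.93 ± 0.24), both of the DNA replication helicase, rose, none fell and 10 did not pass. The share that rose was 16.7%, below the 21.3% of all tested genes. No gene of any of these lists passed in QYD against Model.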

How the data were processed

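Pancreas mRNA of 9 libraries was analysed, 3 each of Control, Model and QYD. Trizol extraction and oligo(dT) selection of mRNA are described per the labels. HISAT2 2.0.4, Bowtie2 2.2.5, RSEM 1.2.12 and build GRCm38.p6 are named per the submitters' processing notes; roles, filters and strandedness are stated nowhere in the labels. The deposited table holds estimated counts per gene and library, of which 93.5% are whole. Per the file headers, FPKM and TPM columns stand beside them, and TPM and the authors' mean columns were left aside.

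Rounded estimated counts went into edgeR 4.0.16 (R 4.3.3): filterByExpr, TMM scaling, and 1 quasi-likelihood fit by group over the 9 libraries, with 6 residual degrees of freedom. Benjamini-Hochberg adjustment ran over 12828 genes, with a threshold of 0.05. The SE of a log2 fold change is its size over the square root of F. Ratios of members were tested by exact permutation. Smallest chi-square per degree of freedom between replicates was 14.9, so no library was taken as a duplicate. The rate of false calls when composition differs between groups, as it did here, was not tested. Alternatives were other scalings, filters, DESeq2 1.42.0, limma 3.58.1 on FPKM, fits of only the compared groups, and leaving out each library.

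The members, the 8 pathway lists and the 12 cell type lists were chosen with earlier results of these data known. Named were all members passing in Model versus Control, up to 6 others, the 5 members with the smallest p in QYD versus Model, members whose call differed in QYD versus Control, and 2 genes per pathway list by smallest p with a mean of at least 1 CPM; others named were chosen after their values were seen.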

Additional observations from a re-analysis of the deposited data

How the results depend on the processing

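Counts of calls depended on scaling. On library totals, 12185 genes were called in Model versus Control, with 27 members higher and 0 lower, and 12155 genes in QYD versus Control, with 27 higher and 0 lower. With limma on log2(FPKM + 1), log2(FPKM + 0.1) and log2(FPKM + 1) without a filter, Model versus Control gave 10083, 10086 and 12665 genes with 26, 26 and 27 members higher and 0 lower each. QYD versus Control gave 10077, 10071 and 12541 genes with 26, 26 and 27 higher and 0 lower each, and QYD versus Model gave 1, 1 and 2 genes and no member. FPKM is scaled to library totals, which by construction keeps the shift of the median gene. Without a filter on counts, 15 members were higher and 1 lower in QYD versus Control, beside 13 and 2 with it, and DESeq2 gave 14 and 2.

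Directions turned with the same choice. In Model versus Control on library totals, with limma at pseudocounts of 1 and 0.1, and with limma without a filter, values were 2.07, 1.24, 1.96 and 1.24 for Pmvk, 2.09, 1.32, 1.97 and 1.32 for Mvd, 1.96, 1.60, 1.97 and 1.60 for Sc5d, 1.81, 1.03, 1.71 and 1.03 for Dhcr7, 1.89, 1.49, 1.91 and 1.49 for Srebf1 and 1.23, 0.73, 1.1 and 0.73 for Abca1. Lss had 1.49 on library totals and 0.55 with limma without a filter, and did not pass the FPKM filter otherwise. In QYD versus Control the same settings gave 1.38, 1.06, 1.40 and 1.06 for Srebf1, 1.27, 0.75, 1.12 and 0.75 for Abca1, and 1.46 and 0.52 for Lss.

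Leaving out 1 library gave 4583 to 5307 genes in Model versus Control, with 11 to 15 members higher and 0 to 2 lower, and 4237 to 5139 genes in QYD versus Control, with 11 to 14 higher and 0 to 2 lower. QYD versus Model stayed at 0 called, with 0 to 3 members at an unadjusted p under 0.05. Differences of 5 members that did not pass changed sign over these fits, which ran from -0.23 to 0.18 for Pmvk, -0.17 to 0.11 for Mvd, -0.12 to 0.31 for Tm7sf2, -0.55 to 0.096 for Dhcr7 and -0.49 to 0.18 for Srebf1. The turns came without Control 45 (Pmvk 0.18, Mvd 0.077) or Model 57 (Pmvk 0.034, Mvd 0.11) and, for Tm7sf2, Dhcr7 and Srebf1, without Control 44; Mvd was also 0.0097 without a filter. The cause was not tested.

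Scaling by RLE or by TMM minus the top 50 genes, either other filter, DESeq2 and a fit of only the compared groups kept the direction and call of 157 of 159 values of the 27 members in Model versus Control, 30 of 30 values of 5 members in QYD versus Model and 45 of 48 values of 8 members in QYD versus Control. Among these, the exceptions were Mvd above, Ebp in Model (adjusted p = 0.0745 with only the compared groups), and in QYD versus Control Lss (0.0587) and Ebp (0.0408) without a filter and Insig2 (0.05) with only the compared groups. No paired analysis was possible because the groups share no replicate numbers. Tm7sf2 had 4 to 8 counts in Control libraries, Hsd17b7 had 5, 10 and 8 and Stard4 had 6, 6 and 12, which limits their precision.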
